A study of Homo sapiens with 6 samples.

Results

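Integrins, laminins and thrombospondins are the receptors and ligands by which epithelial cells hold on to their matrix, and the levels of 36 genes of these families were examined in DU145 cells treated with taraxasterol (TAX). The 36 genes were chosen by name from the 23062 identifiers of each library and comprise 17 integrin alpha chains, 8 integrin beta chains, 8 laminin chains and 3 thrombospondins. The list was set by gene name, but with earlier results of these data known. ITGB8 and THBS1 were also shown in a heatmap for which the study selected genes on these same libraries. DU145, labelled WT, is a line of prostate cancer cells that came from a brain metastasis. RNA was sequenced from 3 control samples kept in MEM medium for 48 h and from 3 samples given TAX, a plant triterpene, at its half-maximal inhibitory concentration (IC50) for 48 h. All cells grew in medium with serum and antibiotics. TAX was dissolved in DMSO, and whether the control cells received DMSO is not stated, so the effects of the solvent and of TAX cannot be told apart. Nothing in the labels says that the 3 samples of a group came from separate passages, so p-values measure the spread between these samples only.

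Integrins are receptors of 1 alpha and 1 beta chain that span the membrane. The alpha chain largely sets the ligand, and most beta chains bind talin and kindlin inside the cell, which connect them to actin. Laminins are trimers of an alpha, a beta and a gamma chain that build the basement membrane. The trimer that holds LAMA3 and LAMB3, called laminin-332, is the anchoring laminin of squamous and glandular epithelia and is bound by the pairs of ITGA3 with ITGB1 and of ITGA6 with ITGB4. The latter pair sits in hemidesmosomes, which fasten keratin filaments to the basement membrane and which are lost from prostate epithelium in many carcinomas. Thrombospondin 1, encoded by THBS1, is a secreted matrix protein that inhibits angiogenesis and can activate latent TGF-beta, a property shared with the integrin of ITGAV and ITGB8.

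The promoters of the 4 genes on which the results turn are shown first, as the sequence next to the listed starts of LAMB3, its partner LAMA3 and the lower genes THBS1 and ITGB8. Which start the cells used was not measured. Each line holds the 250 bases before a start site of RefSeq (GRCh38.p14), read 5′ to 3′ on the strand of the gene, and these windows were found for 27 of the 36 genes, with 35 start sites in all. Capitals mark 4 motifs searched on both strands, which are AP-1 (TGANTCA), the GC box (GGGCGG), the TATA box (TATAAA) and the TEAD motif (GGAATG). LAMB3 has 3 listed starts, of which the first (chr1:209652426-209652675, minus strand) and the third (chr1:209651375-209651624, minus strand) are given. The windows of LAMA3 (chr18:23872770-23873019, plus strand), THBS1 (chr15:39580829-39581078, plus strand) and ITGB8 (chr7:20330650-20330899, plus strand) belong to their only listed starts.
LAMB3, start 1: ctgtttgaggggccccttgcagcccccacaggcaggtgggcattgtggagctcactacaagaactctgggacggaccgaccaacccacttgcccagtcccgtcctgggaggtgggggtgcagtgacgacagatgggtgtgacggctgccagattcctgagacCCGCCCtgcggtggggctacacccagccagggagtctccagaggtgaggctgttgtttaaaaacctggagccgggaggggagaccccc
LAMB3, start 3: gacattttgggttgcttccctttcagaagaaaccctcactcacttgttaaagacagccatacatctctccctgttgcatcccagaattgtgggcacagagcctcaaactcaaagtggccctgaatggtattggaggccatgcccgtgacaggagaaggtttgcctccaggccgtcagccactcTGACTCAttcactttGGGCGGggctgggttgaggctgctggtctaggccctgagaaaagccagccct
LAMA3: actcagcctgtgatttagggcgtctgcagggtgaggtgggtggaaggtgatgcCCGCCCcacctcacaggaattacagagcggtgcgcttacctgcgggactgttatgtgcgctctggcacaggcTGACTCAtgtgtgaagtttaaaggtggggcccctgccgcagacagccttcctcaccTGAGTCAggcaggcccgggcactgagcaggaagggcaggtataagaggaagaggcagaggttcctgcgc
THBS1: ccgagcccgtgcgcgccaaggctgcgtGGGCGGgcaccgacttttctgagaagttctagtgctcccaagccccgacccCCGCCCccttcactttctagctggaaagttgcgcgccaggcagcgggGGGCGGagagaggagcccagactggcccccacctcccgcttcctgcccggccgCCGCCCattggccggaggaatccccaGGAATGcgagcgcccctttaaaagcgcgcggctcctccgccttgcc
ITGB8: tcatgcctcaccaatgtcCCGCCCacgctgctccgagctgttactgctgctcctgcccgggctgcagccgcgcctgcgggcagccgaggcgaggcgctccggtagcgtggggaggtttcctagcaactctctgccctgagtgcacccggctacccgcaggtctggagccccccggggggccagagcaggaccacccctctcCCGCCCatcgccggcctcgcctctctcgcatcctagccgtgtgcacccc
The AP-1 motif occurred in 2 of the 35 windows, or 5.71%, against 6.57% of all 35116 windows in the table. These 2 windows were the LAMA3 window, with matches beginning 125 and 69 bases before the start, and the third LAMB3 window, with a match beginning 67 bases before the start. GC boxes occurred in 20 of the 35 windows (57.1%) and in 42.6% of all windows, TEAD motifs in 14.3% and 11.9%, and TATA boxes in 8.57% and 10.7%. THBS1 carried 4 GC boxes and 1 TEAD motif, beginning 46 bases before the start, while ITGB8 carried 2 GC boxes. These matches are letters in a window, and binding was not measured.

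The 6 libraries differed in scale in a way that touches most of these genes. Values are FPKM, fragments per length of transcript scaled to the size of the library, and their sum ranged from 322483 in control replicate 3 to 363724 in control replicate 1. Control replicate 3 held the lowest of the 3 control values for 72.3% of the 12359 tested genes and for 20 of the 22 tested genes of these families. Where this matters, a result is also given without control replicate 3 or with the median of every library set to the same value, called centring here. Epithelial markers were abundant, with 55.0 to 66.2 FPKM of EPCAM and 126 to 173 FPKM of KRT8, while KLK3, a gene of luminal prostate cells, was listed at 0 in all libraries. PTPRC of leukocytes, GP9 of platelets, DCN of fibroblasts and PECAM1 of endothelium stayed at or below 0.03 FPKM. GP1BA, another platelet marker, was at 2.21 to 2.56 FPKM in all libraries (log2 fold change -0.02, adjusted p = 0.938 from limma). Of the leukocyte markers, PTPRC, CD3E and CD14 stayed at or below 0.419 FPKM. By contrast CD68, a lysosomal gene also used as a macrophage marker, had 20.01 to 26.7 FPKM in control against 32.5 to 33.5 FPKM in TAX libraries (log2 fold change 0.48, adjusted p = 0.0884 from limma), and its part in the results was not tested.

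Of the 36 genes, 22 had at least 1 FPKM in at least 3 libraries and were tested with limma on log2(FPKM + 1), while 14 lay below this filter. In the comparison of TAX-treated with control cells, 0 of the 22 genes had an adjusted p under 0.05 (limma, Benjamini-Hochberg over all tested genes), where 0.477% of all tested genes did, 0.316% as higher and 0.162% as lower. An unadjusted p under 0.05 was found for 5 higher genes, LAMB3, ITGA6, ITGA2, ITGA3 and ITGB5, where 7.73% of all tested genes were higher by this rule. THBS1 was the 1 lower gene, where 2.41% of all tested genes were lower. The 3 TAX values lay all above the 3 control values for 6 of the 22 genes, the same 5 and ITGB4, and all below for THBS1, against 14.6% and 3.34% of all tested genes. The log2 fold change was above 0 for 13 of the 22 genes, where 69.1% of all tested genes were above 0. After centring it was above 0 for 9 of the 22 genes, where the median of all tested genes was -0.003. The median of the 22 genes differed by -0.02 from that of all tested genes, which itself was 0.05. The closest to the threshold was LAMB3 (adjusted p = 0.0701 from limma), which passed it after centring (adjusted p = 0.0353) and without control replicate 2 (adjusted p = 0.0378), and did not pass it in the other 12 alternatives. Centring also changed the calls among all genes from 39 higher and 20 lower to 46 higher and 50 lower. In these bulk samples, a change in the share of cells that make a transcript and a change in its amount per cell cannot be told apart.

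**Figure D1:**
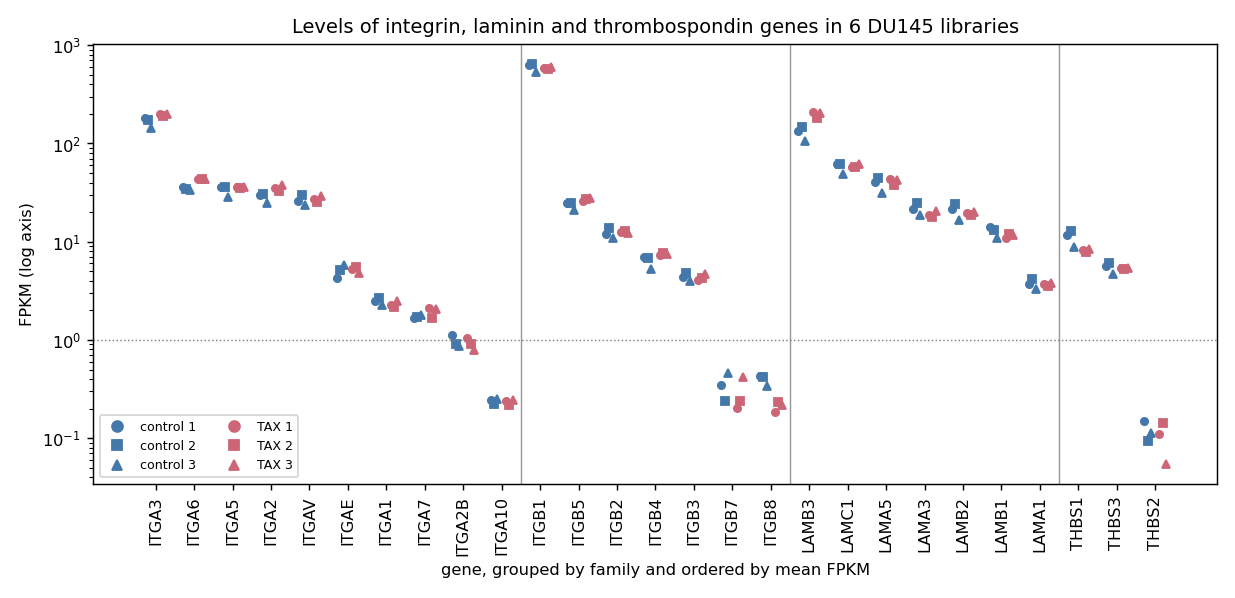
FPKM (log axis) of the genes with a mean of at least 0.1 FPKM, in families separated by grey lines, with 1 point per library, control in blue and TAX in red, and circles, squares and triangles for replicates 1, 2 and 3. ITGB1 and ITGA3 lead the integrins and LAMB3 leads the laminins, and the dotted line marks 1 FPKM.

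**Figure D2:**
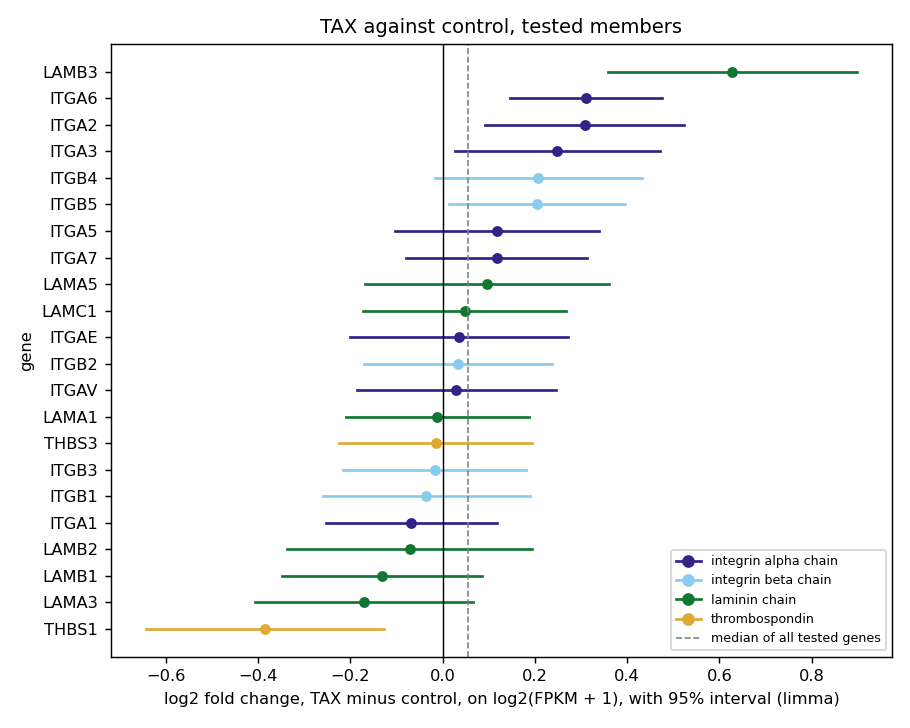
Log2 fold change of TAX minus control on log2(FPKM + 1) for the 22 tested genes, with 95% intervals from limma and colours for the families. LAMB3 stands at 0.63 and THBS1 at -0.38, and the dashed line marks the median of all tested genes at 0.05.

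Among the alpha chains, ITGA6 and ITGA3 of laminin receptors and ITGA2 of a collagen receptor were higher in TAX-treated cells at an unadjusted p under 0.05. ITGA5 and ITGAV of the receptors for RGD ligands did not pass this, and the difference between these chains was not tested. ITGA6, the alpha chain of laminin receptors, lies on chromosome 2 from 172427354 to 172506282 on the plus strand (GENCODE 29, GRCh38). Its FPKM was 36.3, 34.8 and 33.9 in control replicates 1 to 3, against 43.3, 43.6 and 44.0 in TAX replicates 1 to 3. All TAX libraries lay close together and above all controls, and ITGA6 had the smallest standard error of the 5 higher genes. Its mean was 24.7% higher (log2 fold change 0.31, standard error 0.074, unadjusted p = 0.00170, adjusted p = 0.145 from limma), and it kept an unadjusted p under 0.05 in all 14 alternatives, with log2 fold changes from 0.24 to 0.34. ITGA2, the alpha chain of the main epithelial collagen receptor, had 29.8, 30.5 and 24.7 FPKM in control against 35.5, 32.9 and 37.4 FPKM in TAX libraries. The groups did not overlap, and control replicate 3 was the lowest. On the log2 scale ITGA2 was higher by 0.31 (adjusted p = 0.321 from limma, standard error 0.097), and by 0.22 without control replicate 3 (unadjusted p = 0.0162 from limma). ITGA2 also held its unadjusted p under 0.05 in all 14 alternatives.

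ITGA3, which pairs with ITGB1 to bind laminin-332, was the most abundant alpha chain and made up 55.7% of the summed alpha FPKM. It had 179.9, 172 and 144 FPKM in control against 199, 189 and 199 FPKM in TAX libraries. The groups were separate, but control replicates 1 and 2 lay near the TAX libraries and replicate 3 far below. The log2 fold change was 0.25 (standard error 0.10, adjusted p = 0.442 from limma), 0.15 without control replicate 3, and the unadjusted p was above 0.05 without TAX replicate 1 (0.0924) or without TAX replicate 3 (0.0903). ITGA5, the alpha chain of the classical fibronectin receptor, had 33.4 ± 4.39 FPKM in control against 36.1 ± 0.576 FPKM with TAX (SD, n = 3 each). For ITGA5 this gave a log2 fold change of 0.12, with a 95% interval from -0.10 to 0.34. ITGAV, the chain shared by several integrins that bind RGD peptides, had 26.6 ± 3.08 and 27.1 ± 1.78 FPKM (SD, n = 3 each), with an interval from -0.19 to 0.25. For both genes the difference was within the spread between replicates.

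ITGA1, the other collagen-binding chain above the filter, was at 2.47 ± 0.195 FPKM in control against 2.31 ± 0.159 FPKM with TAX (SD, n = 3 each), far below ITGA2 on this scale per length. PELO, a gene of 7.51 to 10.2 FPKM on the same strand, overlaps ITGA1, so the reads of ITGA1 are of uncertain origin. ITGA7, a laminin-binding chain best known from muscle, was at 1.72 ± 0.0503 and 1.96 ± 0.260 FPKM (SD, n = 3 each). ITGAE, the partner of ITGB7 on intraepithelial lymphocytes, was listed at 4.23 to 5.82 FPKM in control against 4.77 to 5.59 FPKM in TAX libraries. HASPIN, a mitotic kinase gene of 5.65 to 6.68 FPKM on the opposite strand, overlaps ITGAE, and it is not stated whether strand was used in counting. None of these 3 chains had an unadjusted p under 0.05 (0.215 to 0.748 from limma). The summed FPKM of the 17 alpha chains was 318, 314 and 265.5 in control and 352, 337 and 356 in TAX libraries, 16.5% higher without overlap (two-sided exact permutation test, p = 0.1, which is the lowest that 3 against 3 allow).

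Among the beta chains, the values of ITGB1 overlapped between the groups, and those of ITGB5 and ITGB4 were slightly higher in TAX libraries. ITGB1, the common partner of 12 alpha chains, was the 43rd most abundant of all identifiers and held 92.3% of the summed beta FPKM. It had 625, 644 and 535 FPKM in control against 581, 574 and 599.9 FPKM in TAX libraries. The groups overlapped, with the TAX values between control replicate 3 and the other controls. For ITGB1 the log2 fold change was -0.04 (95% interval -0.26 to 0.19, adjusted p = 0.921 from limma) and 0.02 without control replicate 2. The summed FPKM of the 8 beta chains was 649 ± 63.0 in control and 637 ± 13.8 in TAX-treated cells (SD, n = 3 each; two-sided exact permutation test, p = 0.9).

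ITGB4, the hemidesmosome chain that pairs with ITGA6, had 7.07, 6.84 and 5.30 FPKM in control against 7.32, 7.69 and 7.49 FPKM in TAX libraries. The TAX values were above all controls, although control replicate 1 came close. The log2 fold change was 0.21 (standard error 0.10, unadjusted p = 0.0664, adjusted p = 0.516 from limma) and 0.10 without control replicate 3 (unadjusted p = 0.168), while the unadjusted p was 0.0320 and 0.0486 without control replicate 1 or 2. ITGB4 overlaps GALK1, a galactokinase gene of 5.47 to 7.35 FPKM on the opposite strand. ITGB5, a partner of ITGAV in receptors for vitronectin, had 24.7, 24.8 and 21.1 FPKM in control against 26.2, 27.5 and 27.8 FPKM in TAX libraries. The groups were separate by a small margin, and the log2 fold change was 0.20 (standard error 0.086, unadjusted p = 0.0386, adjusted p = 0.466 from limma). Its unadjusted p was above 0.05 without control replicate 3 or without any 1 of the 3 TAX replicates, at 0.0562 to 0.1197.

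ITGB8, which like THBS1 was picked for the heatmap of the study on these libraries and is no independent evidence, was lower in every TAX library, at a level below the filter. ITGB8 extends on chromosome 7 from 20330702 to 20415754 on the plus strand, and its 2 GC boxes are marked above. It had 0.426, 0.419 and 0.341 FPKM in control against 0.185, 0.235 and 0.219 FPKM in TAX libraries. The lowest control stood above the highest TAX value, and the TAX mean was 46.2% lower (two-sided exact permutation test, p = 0.1). In the comparison of all 20280 genes above 0, the log2 fold change was -0.20 on the log2(FPKM + 1) scale, which understates the change of so low a gene (unadjusted p = 0.000983, adjusted p = 0.208 from limma). ITGB3, the partner of ITGAV in the receptor for vitronectin and of ITGA2B in platelets, had 4.40 ± 0.420 and 4.33 ± 0.327 FPKM (SD, n = 3 each), with a 95% interval of the log2 fold change from -0.22 to 0.18. ITGB6 was listed at 0 to 0.02 FPKM. Among ITGB3, ITGB5, ITGB6 and ITGB8, the chains that join ITGAV beside ITGB1, ITGB8 accounted for 1.34 to 1.45% of the summed FPKM in control against 0.605 to 0.733% in TAX libraries, and ITGB5 for 82.5 to 83.7% and 85.0 to 86.1%. These shares do not depend on the scale of a library.

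Integrins act as pairs, and the levels can be read that way. Of 23 known pairs whose chains are both among the 36 genes, 10 had both chains at a mean of at least 1 FPKM in both groups. These were ITGB1 with ITGA1, ITGA2, ITGA3, ITGA5, ITGA6, ITGA7 or ITGAV, ITGAV with ITGB3 or ITGB5, and ITGA6 with ITGB4. ITGB1 exceeded the sum of its possible alpha partners in each library, by a ratio of 2.00, 2.09 and 2.07 in control and 1.68, 1.74 and 1.71 in TAX libraries. The ratio was thus lower in all TAX libraries. ITGB2, the beta chain of leukocyte integrins, was present at 11.01 to 13.9 FPKM in all libraries (log2 fold change 0.03, standard error 0.092, adjusted p = 0.919 from limma). Its alpha partners were nearly absent, with ITGAL listed at 0 in all libraries and ITGAM and ITGAX at no more than 0.0713 and 0.135 FPKM. ITGAE likewise lacked a matching level of ITGB7, which was at 0.204 to 0.465 FPKM.

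LAMB3, the beta chain of laminin-332, had the largest log2 fold change of the 22 genes. It lies on chromosome 1 from 209614870 to 209652466 on the minus strand, with 22 exons in its longest coding transcript, and it ranked 247 by mean FPKM. Its FPKM was 133, 148 and 106 in control replicates 1 to 3, against 207, 183 and 203.5 in TAX replicates 1 to 3. The lowest TAX library was clearly above the highest control. The mean was 53.7% higher (log2 fold change 0.63, standard error 0.12, unadjusted p = 0.000374, adjusted p = 0.0701 from limma). It was 0.49 on the log2 scale without control replicate 3 and 0.49 to 0.73 over the 14 alternatives, all with an unadjusted p under 0.05.

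LAMA3, the partner of LAMB3 in laminin-332, had a log2 fold change of the other sign, a contrast that was not tested. It had 21.4, 24.9 and 18.7 FPKM in control against 18.7, 17.9 and 20.5 FPKM in TAX libraries. These values overlapped, and the log2 fold change of LAMA3 was -0.17 (standard error 0.11, unadjusted p = 0.140 from limma). It was -0.23 after centring (unadjusted p = 0.0205) and -0.27 without control replicate 3 (unadjusted p = 0.0181). LAMA3 codes for long and short chains from separate starts, which 1 value per gene does not resolve, and the window printed above lies inside the gene.

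Within a library, where its scale cancels, the ratio of LAMB3 to LAMA3 was 6.22, 5.93 and 5.67 in control and 11.1, 10.3 and 9.92 in TAX libraries. LAMB3 was therefore already in excess of LAMA3 in control cells, and more so in all TAX libraries. All ratios were chosen after the values were seen and carry no test.

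The other laminin chains had log2 fold changes near 0, which were not tested against that of LAMB3. LAMC1, the gamma chain of most other laminins, had 57.5 ± 7.05 FPKM in control against 59.1 ± 2.12 FPKM with TAX (SD, n = 3 each). LAMA5, the alpha chain of the widespread epithelial basement membrane laminins, had 38.8 ± 6.51 and 41.2 ± 2.92 FPKM, and LAMA1, the alpha chain of the first laminin made in the embryo, 3.75 ± 0.443 and 3.70 ± 0.158 FPKM (SD, n = 3 each). The 95% intervals of the log2 fold changes of these 3 genes held 0, and the widest reached from -0.17 to 0.36, for LAMA5. LAMB1 and LAMB2, the beta chains of those laminins, had 12.7 ± 1.65 and 20.8 ± 3.90 FPKM in control against 11.5 ± 0.50 and 19.6 ± 0.607 FPKM with TAX (SD, n = 3 each). Their log2 fold changes were -0.13 and -0.07 (unadjusted p = 0.208 and 0.563 from limma), but -0.23 and -0.21 without control replicate 3 (unadjusted p = 0.0111 and 0.0223). LAMB2 was at 0.05 without control replicate 2. The ratio of LAMB3 to LAMB1 was 9.43 to 11.3 in control and 15.5 to 19.1 in TAX libraries. LAMB1 overlaps DLD (35.3 to 40.8 FPKM) and LAMA5 overlaps ADRM1 (54.0 to 69.3 FPKM), each on the opposite strand. The summed FPKM of the 8 laminin chains, of which LAMB3 made up 51.4%, was 24.0% higher after TAX treatment without overlap (two-sided exact permutation test, p = 0.1).

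**Figure D3:**
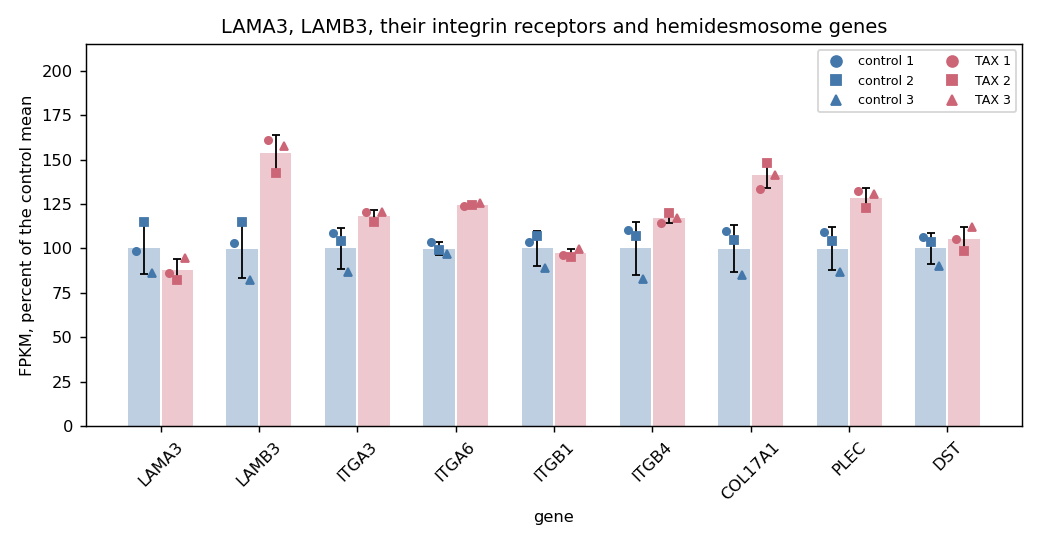
FPKM of LAMA3 and LAMB3, their integrin receptors and 3 hemidesmosome genes, as percent of the control mean of each gene. Bars are means of 3 libraries with SD, and circles, squares and triangles are replicates 1, 2 and 3 of control (blue) and TAX (red). The TAX libraries of LAMB3 stand above all controls and those of LAMA3 do not, and control replicate 3 is low in most genes.

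THBS1 was lower in TAX-treated cells, the 1 of 2 tested thrombospondins with an unadjusted p under 0.05. THBS1 lies on chromosome 15 from 39581079 to 39599466 on the plus strand and has 22 exons in its longest coding transcript. It had 11.6, 12.8 and 8.86 FPKM in control against 8.22, 7.81 and 8.47 FPKM in TAX libraries. All TAX values lay below all controls, with control replicate 3 close to them. The mean was 26.3% lower (log2 fold change -0.38, standard error 0.12, unadjusted p = 0.00757, adjusted p = 0.280 from limma). The log2 fold change was -0.52 without control replicate 3 (adjusted p = 0.0488) and -0.44 after centring (adjusted p = 0.0696), and the unadjusted p was under 0.05 in all 14 alternatives. FSIP1, which overlaps THBS1 on the opposite strand, was at 0.446 to 0.827 FPKM.

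THBS3, a member of the family found in cartilage and many other tissues, had 5.46 ± 0.724 FPKM in control against 5.36 ± 0.126 FPKM with TAX (SD, n = 3 each; 95% interval of the log2 fold change -0.22 to 0.19). A stretch of THBS3 overlaps MTX1, a gene of 26.0 to 32.6 FPKM on the opposite strand. THBS2, an inhibitor of angiogenesis like THBS1, was at 0.0552 to 0.148 FPKM. The ratio of THBS1 to THBS3 within a library was 2.05, 2.11 and 1.90 in control and 1.52, 1.496 and 1.55 in TAX libraries, so THBS1 was lower against its own relative too. The summed FPKM of the 3 thrombospondins was 16.7 ± 2.74 and 13.6 ± 0.418 (SD, n = 3 each) and overlapped (two-sided exact permutation test, p = 0.3).

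**Figure D4:**
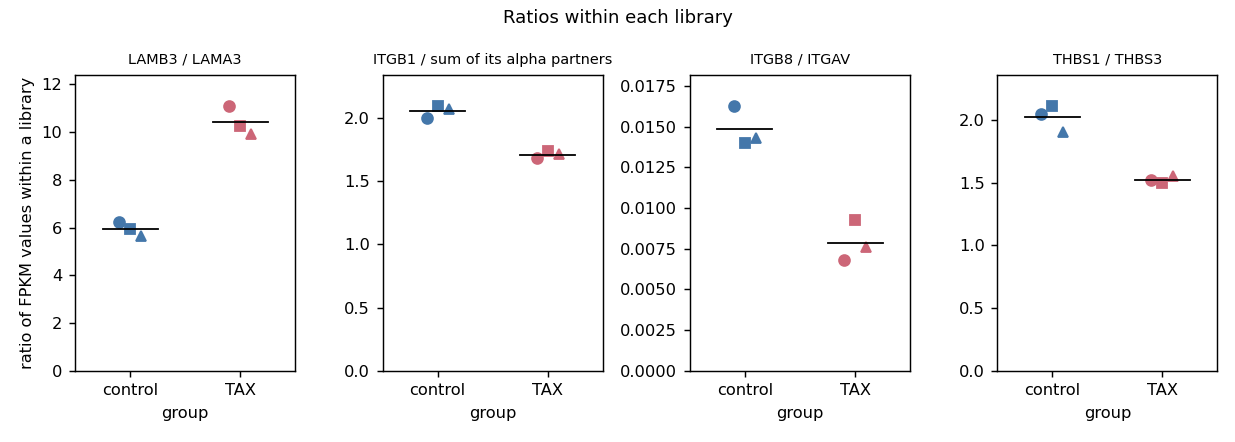
Ratios of FPKM values within each library, with axes from 0, for LAMB3 over LAMA3, ITGB1 over the summed FPKM of its 12 possible alpha partners, ITGB8 over ITGAV and THBS1 over THBS3. Symbols are replicates as before and lines are means of 3, and in each panel the control and TAX libraries do not overlap. The ratios were picked after the values were seen. ITGA6 over ITGB4 and ITGA5 over ITGAV, which are not shown, overlapped between the groups.

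Apart from ITGB8, the genes below the filter gave no readable difference. Of the 14 genes, ITGA8 and ITGAL were listed at 0 in all libraries, and ITGA4 (the partner of ITGB1 in the receptor for VCAM1), ITGB6 and LAMA4 (a chain of vascular laminins) in 1 to 5 of them. An exact 0 can be a failed estimate. ITGA2B, the platelet chain, was nearest to the filter at 0.792 to 1.11 FPKM, and ITGA10, ITGA11 and ITGA9, which bind collagens or tenascin, lay between 0.04 and 0.25 FPKM. ITGAM was higher in all TAX libraries (0.0161 to 0.0479 and 0.0528 to 0.0713 FPKM), a level for which no count is known.

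The other genes of cell adhesion, 75 in 4 lists, were looked at beside these families, and 56 of them were tested. By limma 0 of the 56 had an adjusted p under 0.05, while 11 were higher and 3 lower at an unadjusted p under 0.05. The higher ones were 19.6% of the 56, beside 7.73% of all tested genes, and 2.41% of all tested genes were lower. Of 26 tested adaptors that connect integrins to actin, 24 had a log2 fold change above 0, where 69.1% of all tested genes did, a share that moves with the scaling of the libraries. An unadjusted p under 0.05 was found for 5 higher and 1 lower of them. PXN, the scaffold paxillin, had 71.7 ± 7.41 and 87.3 ± 1.92 FPKM (SD, n = 3 each; log2 fold change 0.29, adjusted p = 0.335 from limma). ILK and ZYX, for integrin-linked kinase and zyxin, were higher by 0.28 and 0.27, while TNS3, a tensin, was lower by a log2 fold change of -0.25 (adjusted p from 0.406 to 0.432). The median of the 26 adaptors was 0.03 relative to all genes, a small shift.

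Among the genes of hemidesmosomes and other receptors, COL17A1, PLEC and SDC1 were higher at an unadjusted p under 0.05, which made 3 of 11 tested higher and 0 lower, beside 7.73% and 2.41% of all tested genes. COL17A1, a transmembrane collagen, had 2.21, 2.096 and 1.71 FPKM in control against 2.68, 2.97 and 2.83 FPKM in TAX libraries (log2 fold change 0.35, unadjusted p = 0.00254, adjusted p = 0.181 from limma). PLEC, for plectin, which holds keratin filaments, had 51.1 ± 6.03 and 65.6 ± 2.69 FPKM (SD, n = 3 each; log2 fold change 0.36, unadjusted p = 0.00385, adjusted p = 0.220 from limma). For both genes the groups were separate, and without control replicate 3 the log2 fold changes were 0.28 and 0.26. DST, for the linker dystonin, was at 56.2 ± 4.96 and 59.2 ± 3.87 FPKM (n = 3 each, SD; adjusted p = 0.794 from limma), and its groups overlapped. SDC1, a syndecan that binds laminins and thrombospondin, was higher by 0.22 on the log2 scale (unadjusted p = 0.0212, adjusted p = 0.406 from limma).

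Of 18 tested other matrix ligands, 2 were higher and 2 lower at an unadjusted p under 0.05, beside 7.73% and 2.41% of all tested genes, and with so few genes nothing is read from these counts. TNC, for tenascin C, had 56.5 ± 8.47 and 72.8 ± 4.76 FPKM (SD, n = 3 each; log2 fold change 0.37, adjusted p = 0.292 from limma), and COL18A1, a basement membrane collagen, was higher by 0.18 (adjusted p = 0.486). COL1A1, a chain of fibrillar collagen, was at 2.00 ± 0.0947 and 1.44 ± 0.0285 FPKM (SD, n = 3 each; log2 fold change -0.29, adjusted p = 0.197 from limma). EDIL3, a secreted RGD protein bound by ITGAV pairs, had 103.7 ± 14.1 and 86.2 ± 5.08 FPKM (SD, n = 3 each; log2 fold change -0.26, adjusted p = 0.459 from limma). FN1, for fibronectin, stayed low at 3.26 to 4.50 FPKM in both groups.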

How the data were processed

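The values deposited by the authors, 1 table for each library, were taken as FPKM because the values are decimals whose sums differ between libraries. The header names no unit, and TPM is not wholly excluded. The submitters' processing notes name HISAT2 2.2.0, StringTie 2.1.2 and GRCh38. Annotation, filters and the use of strand are not given in the sources used here. Of 23062 identifiers, 3130 are assembled loci without a gene name. Read numbers are unknown, since no step of whole reads was seen among low values (at most 5.72% of 332 genes in a bin).

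From these values log2(FPKM + 1) was computed for 12359 genes that reached 1 FPKM in 3 or more of 6 libraries. A linear model of the groups, without covariates, was fitted by limma 3.58.1 (R 4.3.3) with a trended prior, and Benjamini-Hochberg adjustment covered all these genes. Standard errors and 95% intervals are those of limma. Sums were compared with the exact two-sided permutation test over the 6 libraries. The fit was tested on simulated data.

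The genes and lists were chosen with earlier results of these data known. Values in each library are given for ITGB8, THBS1, each gene with an unadjusted p under 0.05, each gene of at least 1 FPKM whose groups did not overlap and the most abundant gene of each family, and at most 4 genes per list. LAMA3, LAMB1, LAMB2, DST, FN1 and overlapping genes were named after their values were seen. Some genes of the lists are not reported here. Positions and overlaps come from GENCODE 29 (GRCh38) and promoter windows from RefSeq (GRCh38.p14). Alternatives were another pseudocount (0.1), filters and scalings, no trend, a replicate block and leaving out each library.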

Additional observations from a re-analysis of the deposited data

How the results depend on the processing

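The number of reads is unknown, so no counting error can be given, and ITGB8 and the other genes under 1 FPKM are judged only by the spread of 3 libraries. The count of 5 higher genes of these families held within 1.5 times in each alternative that kept all libraries. The 1 lower gene became 2 with the filter at 0.1 FPKM, without a filter and with each library scaled to a sum of 1000000, and 3 after quantile normalization or centring on the median. Genes of the adhesion lists that were lower went from 3 to 5 after scaling or quantile normalization and to 8 after centring. With an adjusted p under 0.05, centring called 1 gene of these families, LAMB3. Over the 6 fits that each left out 1 library, the higher genes numbered 3 to 6, the lower ones 1 to 4 and those with an adjusted p under 0.05 0 to 1. Lower genes were most numerous without control replicate 3, when LAMA3, LAMB1 and LAMB2 joined THBS1, and the higher ones fewest without TAX replicate 1 or 3. List genes were higher in 6 to 14 cases and lower in 1 to 8, with the 8 lower ones without control replicate 3. The summed alpha, laminin and thrombospondin FPKM kept their direction, by 10.3 to 20.3%, 14.3 to 32.4% and -25.0 to -12.1%. The summed beta FPKM changed sign, from -6.94% to 1.87%, being 0.115% higher without control replicate 1 and 1.87% higher without control replicate 2. The log2 fold change of ITGB1 was 0.01673 without control replicate 2. The median of the tested genes relative to all genes ranged from -0.06 to 0.03.

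The labels do not say whether replicate numbers pair the samples. Deviations from the group means correlated by -0.117, -0.334 and -0.171 (Pearson's r across genes) between same-numbered libraries. These values cannot settle the pairing, because the deviations within a group sum to 0 and follow the scale of the libraries. With the replicate block, 4 genes of these families were higher and 1 lower at an unadjusted p under 0.05, and 0 had an adjusted p under 0.05, the higher gene that was lost being ITGB5, while the calls among all genes went from 59 to 26. No sample correlated best with its own number.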
